A study of Homo sapiens with 6 samples.

Results

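The proteasome genes described here are the 42 constitutive subunits, activators and assembly factors that the deposited expression table names PSMA, PSMB, PSMC, PSMD, PSME, PSMF or PSMG followed by a number. They were chosen by name among 12659 genes, and the inducible catalytic subunits PSMB8, PSMB9 and PSMB10 were set aside. Their RNA was compared between NCI-H1650Re, a human lung cancer line labelled post-SCLC, and NCI-H1650, the established lung adenocarcinoma line labelled pre-LUAD. SCLC stands for small cell lung cancer and LUAD for lung adenocarcinoma. Polyadenylated RNA was sequenced from 3 libraries of NCI-H1650Re and 3 libraries of NCI-H1650. The labels give no treatment, no time in culture and no account of how NCI-H1650Re was derived, and they enter the parental name as the cell line of all 6 libraries. Nothing in the labels says that the replicates were separate cultures, so p-values measure the spread between these libraries, which may be technical.

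The proteasome degrades proteins that carry ubiquitin chains. Its core particle is a barrel of stacked rings, in which PSMA genes encode the alpha subunits that gate the entrance and PSMB genes the beta subunits that hold the proteolytic sites. A cap sits on the barrel: PSMC genes encode the ATPases of its base, which unfold and thread the substrate, and PSMD genes encode the remaining cap subunits, which bind and remove ubiquitin, together with chaperones that help build the cap. PSME genes encode alternative activators, PSMF1 an inhibitor, and PSMG genes chaperones that assemble the core.

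Levels are FPKM, fragment numbers scaled to the length of the transcript and the depth of the library. Changes are log2 changes of FPKM + 1, NCI-H1650Re minus NCI-H1650, tested with limma over 11764 genes at a Benjamini-Hochberg adjusted p of 0.05. Estimated depth was 18.1 to 21.6 M fragments (M, mega) in NCI-H1650Re and 17 to 22.3 M in NCI-H1650. Within a line, the 3 libraries correlated at 0.98 to 0.994 in NCI-H1650Re and 0.988 to 0.997 in NCI-H1650 over log2 values, and replicate 3 was the library farthest from the others in each line. Of the 6 epithelial markers EPCAM, CDH1, KRT7, KRT8, KRT18 and KRT19, all had values in both lines and 4 were lower in NCI-H1650Re, EPCAM, CDH1, KRT8 and KRT19, the last at 68.7 FPKM in NCI-H1650Re and 754 in NCI-H1650. KRT7 (log2 change 0.35) and KRT18 (0.13) did not pass. Their part in the proteasome values was not tested. Among small cell and neuroendocrine markers, SYP was at 1.65 FPKM in NCI-H1650Re and 1.23 in NCI-H1650, and CHGA was at 3.39 and 0.563 in the same order. CHGA passed (limma adjusted p = 0.0101) and SYP did not (limma adjusted p = 0.124). The other 5 of the 7 markers on that list were not analysed here. Of 8 fibroblast, leukocyte and endothelial markers, 1 had values, COL1A1 at 1.96 FPKM in NCI-H1650Re and 1.01 in NCI-H1650.

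All 42 proteasome genes passed the filter on low values. Between the lines 6 changed, 5 of them higher and 1 lower in NCI-H1650Re, and 36 did not pass the test, which does not show that their levels were equal. The 6 are 14.3% of the proteasome genes, where 30.5% of all tested genes changed. In the higher direction 11.9% changed, where 16.6% of all tested genes did, and in the lower direction 2.38% did, where 13.9% of all tested genes did. The rises were those of PSMC4, PSMA4, PSMB2, PSMD8 and PSMD14, each between 15.5% and 22.9% on the mean FPKM, and the fall was that of PSMD7. A log2 change of at least 0.3 in size was met by 1 proteasome gene, PSMD7, and by 32.6% of all tested genes. The median log2 change was 0.09 over the proteasome genes and 0.03 over all tested genes. The ranges of the lines did not overlap for 13 proteasome genes, 12 higher and 1 lower, or 31.0%, where the ranges were apart for 47.2% of all tested genes. The RNA came from whole cultures, so a level that differs in every cell and one that differs in some of the cells cannot be told apart.

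**Figure D1:**
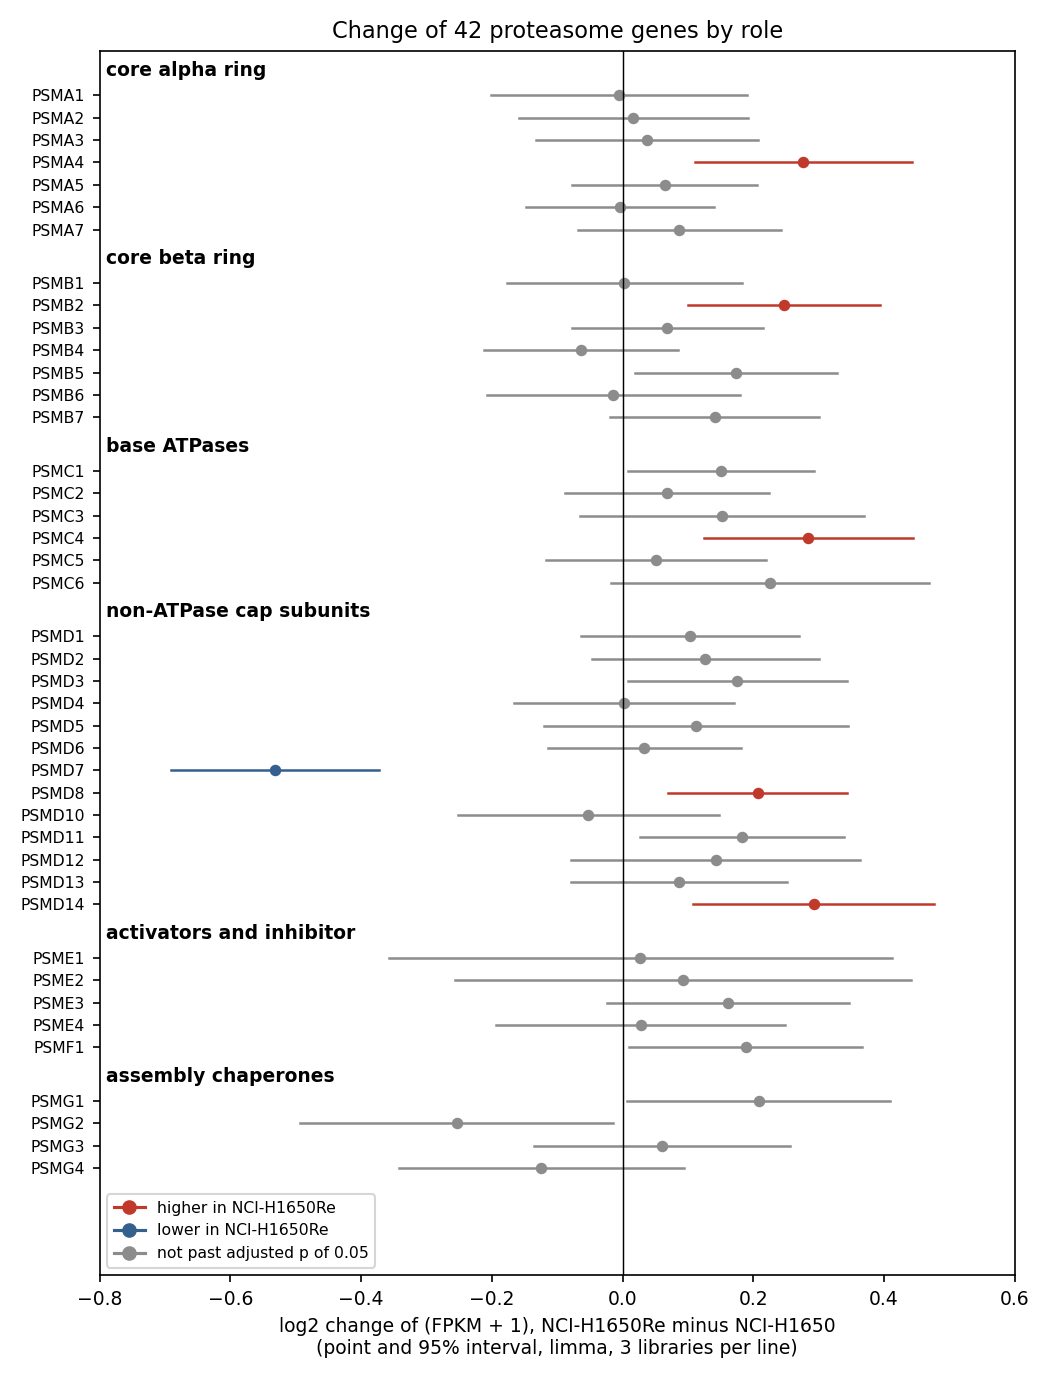
Log2 change of FPKM + 1 (x axis, NCI-H1650Re minus NCI-H1650) for each of 42 proteasome genes, grouped by role from top to bottom; points are limma estimates and lines 95% intervals, from 3 libraries per line. PSMD7 lies at -0.53, and every other gene lies between -0.25 and 0.29.

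PSMD7 encodes a cap subunit of the lid, the catalytically inactive partner that pairs with the deubiquitinase PSMD14. It had 85, 85.15 and 81.6 FPKM in NCI-H1650Re replicates 1, 2 and 3, against 125, 113 and 127 FPKM in NCI-H1650. The highest NCI-H1650Re library lay well below the lowest NCI-H1650 library. Its mean was 83.9 ± 2.02 FPKM in NCI-H1650Re and 122 ± 7.45 FPKM in NCI-H1650 (SD, n = 3 each), a log2 change of -0.53 (SE 0.07, 95% interval -0.69 to -0.37, limma adjusted p = 0.00176). PSMD7 passed in all 14 alternative settings, with limma adjusted p from 0.00125 to 0.0122, and with every single library left out. In the authors' deposited table it has a log2 fold change of -0.57 and an FDR of 1.27e-05 but is marked as normal, as are the other 41. By that table PSMD7 was the 1 proteasome gene of 42 with an FDR under 0.05, where 27.9% of all 12659 genes had one.

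PSMD14 is the metalloprotease that cuts ubiquitin chains from substrates as they enter the core. It had 67.3, 72.5 and 63.5 FPKM in NCI-H1650Re, against 59.3, 54.1 and 52.0 FPKM in NCI-H1650. All 3 NCI-H1650Re libraries were above all 3 NCI-H1650 libraries, the opposite order to its partner PSMD7. The means were 67.8 ± 4.53 FPKM in NCI-H1650Re and 55.2 ± 3.76 FPKM in NCI-H1650 (log2 change 0.29, SE 0.08, limma adjusted p = 0.0279). The ratio of PSMD7 to PSMD14 FPKM was 1.26, 1.17 and 1.28 in NCI-H1650Re replicates 1, 2 and 3, against 2.11, 2.10 and 2.44 in NCI-H1650. This pair was set side by side after its values were seen, so the ratio is a description and was not tested.

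PSMC4, an ATPase of the base, was the other cap gene that rose by over 20%. It had 131, 131 and 119 FPKM in NCI-H1650Re, against 103, 101 and 109 FPKM in NCI-H1650 (log2 change 0.28, SE 0.07, limma adjusted p = 0.0185). PSMD8, a lid subunit, had 158, 162 and 153 FPKM in NCI-H1650Re, against 138, 138 and 134 FPKM in NCI-H1650. The PSMD8 ranges were apart, with the smallest step of the 5 rises (log2 change 0.21, SE 0.06, limma adjusted p = 0.0331). In the core, PSMA4, an alpha subunit, had 41.7, 38.9 and 36.3 FPKM in NCI-H1650Re, against 32.8, 31.9 and 31.25 FPKM in NCI-H1650 (log2 change 0.28, SE 0.07, limma adjusted p = 0.0234). PSMB2, a beta subunit without a proteolytic site, had 48.8, 49.1 and 49.9 FPKM in NCI-H1650Re, against 43.6, 40.5 and 40.0 FPKM in NCI-H1650. Its ranges were apart, and its NCI-H1650Re libraries had an SD of 0.594 FPKM (log2 change 0.25, SE 0.06, limma adjusted p = 0.0227).

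The calls of the 5 rises, more than their sizes, depended on single libraries. With 1 library left out in turn, the log2 change ran from 0.23 to 0.33 for PSMA4, 0.22 to 0.29 for PSMB2, 0.26 to 0.33 for PSMC4, 0.19 to 0.23 for PSMD8 and 0.24 to 0.35 for PSMD14. Without NCI-H1650Re replicate 2, or without NCI-H1650 replicate 2, none of the 5 passed and PSMD7 was the sole proteasome gene past the threshold, where 16.1% and 15.2% of all genes passed in the same order. Without NCI-H1650Re replicate 1, PSMB2, PSMC4, PSMD7 and PSMG2 passed, where 24.8% of all genes did. Without NCI-H1650 replicate 1, PSMB2, PSMD14, PSMD7 and PSMG1 passed, where 20.3% of all genes did, and without NCI-H1650 replicate 3, PSMC4 and PSMD7, where 26.9% did. Without NCI-H1650Re replicate 3, all 5 rises and PSMD7 passed among 11 proteasome genes, where 38.1% of all genes did. Without both replicate 3 libraries, 10 proteasome genes were higher and 1 lower, where 43.2% of all genes changed. In the authors' deposited table the log2 fold changes of the 5 ran from 0.18 for PSMD8 to 0.27 for PSMD14, with FDRs from 0.0719 for PSMD14 to 0.237 for PSMD8. For PSMD7 and each of the 5, the two-sided exact permutation p was 0.1, the smallest that 3 libraries per line allow.

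**Figure D2:**
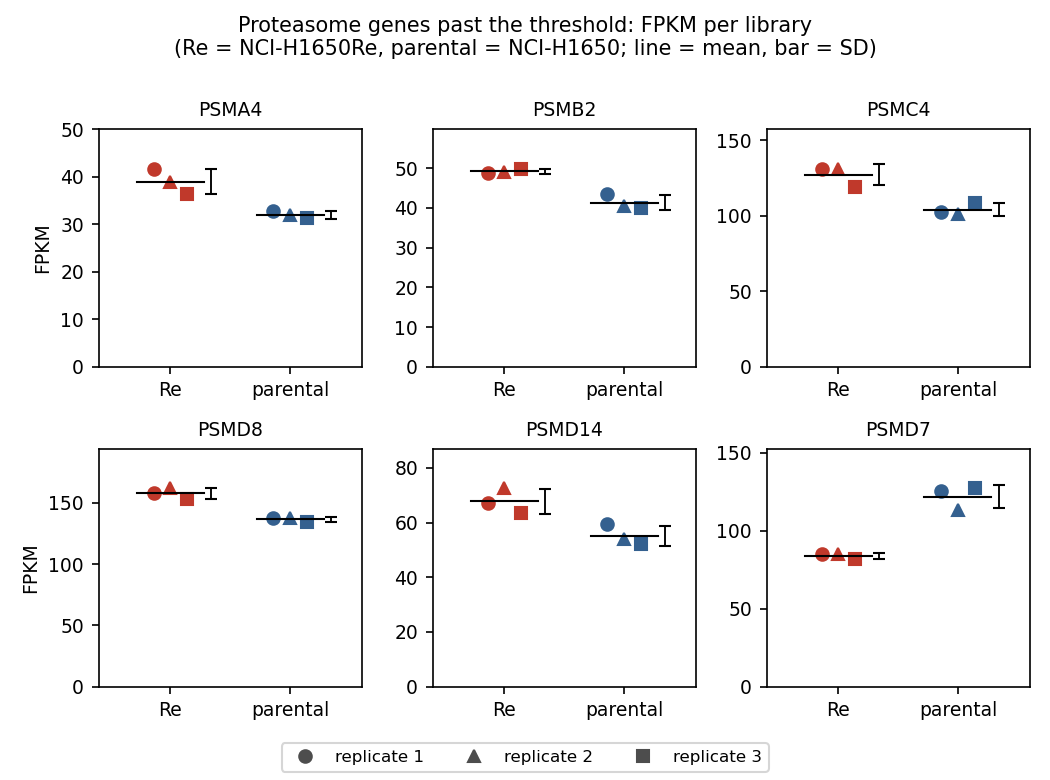
FPKM (y axis, from 0) of the 6 proteasome genes past the threshold in each library, NCI-H1650Re left and NCI-H1650 right; symbols are replicates, horizontal lines means and bars the SD of 3 libraries. In each panel the lines do not overlap, and PSMD7 alone is lower in NCI-H1650Re, at 83.9 FPKM against 122.

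PSMD7 lies on chromosome 16, from 74296775 to 74306288 on GRCh38, and its neighbours were lower as well. Among the 20 tested genes nearest to it by start, 10 on each side, 18 were lower in NCI-H1650Re, none was higher and 2 did not pass, and their median log2 change was -0.61. GLG1, which encodes a Golgi sialoglycoprotein, was at 39.3 FPKM in NCI-H1650Re and 83.3 in NCI-H1650 (log2 change -1.07), and AP1G1, a clathrin adaptor subunit, at 24.6 and 43.6 in the same order (log2 change -0.80). For the other 41 proteasome genes, which lie on 16 chromosomes together with PSMD7, the median log2 change of up to 20 neighbours ran from -0.08 to 0.20, and at most 6 of those neighbours were lower. The neighbours of PSMD14 had a median of -0.08, with 3 lower and 2 higher. The part of the position on the chromosome in the fall of PSMD7 was not tested. PSMB10, the inducible subunit set aside by the choice of names, also lies on chromosome 16, with 19 of its 20 neighbours lower (median log2 change -0.57).

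**Figure D3:**
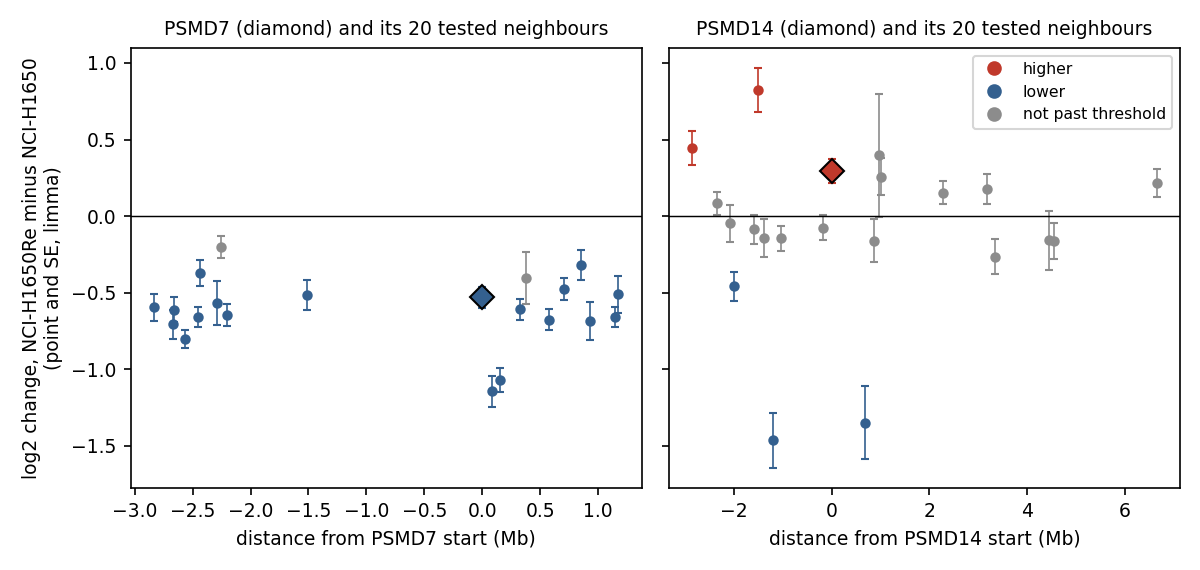
Log2 change (y axis, NCI-H1650Re minus NCI-H1650) of PSMD7, left, and PSMD14, right, as diamonds, and of the 20 tested genes nearest to each, against the distance of their starts in Mb; points are limma estimates with SE and colours give the call. Every neighbour of PSMD7 lies below 0, with a median of -0.61, while those of PSMD14 lie on either side.

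The sequence around the starts of the 6 changed genes was read from RefSeq promoters (GRCh38.p14), each running from 250 bases before to 50 bases after the start. Promoters of 36 of the 42 genes were matched; PSMA7, PSMB1, PSMB6, PSMB7, PSMD4 and PSMG3 were not. Antioxidant response elements were searched because NFE2L1, the factor known to drive proteasome genes when proteasomes are inhibited, binds such sites. They were spelled TGACNNNGC and TGAGNNNGC on either strand, and CCAAT, the box bound by NF-Y, was searched as well. PSMD7, the gene that fell, and PSMD14, its partner that rose, are shown whole, with the matches in capitals, since they moved in opposite directions. PSMD7 holds a CCAAT match and neither of the other spellings, and PSMD14 holds 1 TGAGNNNGC match on the reverse strand and an overlapping pair of CCAAT matches.
PSMD7, chr16:74296564-74296863, plus strand: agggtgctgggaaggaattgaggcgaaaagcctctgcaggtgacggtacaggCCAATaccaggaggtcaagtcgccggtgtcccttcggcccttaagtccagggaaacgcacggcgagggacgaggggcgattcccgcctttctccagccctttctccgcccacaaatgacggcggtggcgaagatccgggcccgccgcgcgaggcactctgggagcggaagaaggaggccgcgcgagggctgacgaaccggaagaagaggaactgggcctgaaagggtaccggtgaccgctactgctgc
PSMD14, chr2:161308175-161308474, plus strand: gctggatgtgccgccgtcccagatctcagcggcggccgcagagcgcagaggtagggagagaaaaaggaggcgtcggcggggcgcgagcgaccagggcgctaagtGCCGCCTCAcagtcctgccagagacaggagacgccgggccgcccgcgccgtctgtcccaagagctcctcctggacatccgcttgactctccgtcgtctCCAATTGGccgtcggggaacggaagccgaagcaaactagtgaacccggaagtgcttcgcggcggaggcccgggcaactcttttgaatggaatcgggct

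For the other 4 genes that rose, the stretch around the match is shown, with the element in capitals, so that its letters can be compared with those of PSMD14. PSMC4 holds both spellings, and its TGAGNNNGC match is given. PSMA4 has 3 starts in the table, and the match lies in the most downstream of its promoters and in neither of the others.
PSMC4, chr19:39971089-39971157, plus strand: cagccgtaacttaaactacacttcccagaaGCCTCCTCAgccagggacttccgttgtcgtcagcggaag
PSMD8, chr19:38374487-38374555, plus strand: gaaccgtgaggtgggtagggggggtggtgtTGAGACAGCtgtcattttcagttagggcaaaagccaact
PSMA4, chr15:78540630-78540698, plus strand: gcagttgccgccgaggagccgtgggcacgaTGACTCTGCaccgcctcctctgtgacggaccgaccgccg
PSMB2, chr1:35641477-35641539, minus strand: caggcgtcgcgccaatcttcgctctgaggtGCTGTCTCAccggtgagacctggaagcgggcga

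A gene counted when any of its promoters held a match. Either spelling of the element was found for all 5 genes that rose and for 15 of 30 matched proteasome genes that did not pass. By spelling, TGACNNNGC was found for 2 of these 5 and 11 of these 30, TGAGNNNGC for 4 and 8, and CCAAT for 4 and 13. Either spelling of the element was found for 39.8% of 8767 tested genes and 33.7% of all 27305 genes in the promoter table. Over the 36 matched proteasome genes it was found in 20, or 55.6%, and CCAAT in 18, or 50%, where 43.2% of tested genes and 39.7% of all genes held CCAAT. These matches describe letters within 300 bases and say nothing of binding. The RNA of NFE2L1 itself was at 67.4, 80.2 and 104 FPKM in NCI-H1650Re, against 89.3, 86.85 and 89.7 FPKM in NCI-H1650. The NCI-H1650Re libraries spread on either side of the NCI-H1650 range, and NFE2L1 did not pass (log2 change -0.10, SE 0.14, limma adjusted p = 0.613). This value moved with single libraries: without NCI-H1650Re replicate 3 NFE2L1 was lower (log2 change -0.27, limma adjusted p = 0.0446), and without NCI-H1650Re replicate 1 its log2 change was 0.04 (limma adjusted p = 0.804).

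Across the core, 2 of 14 genes rose and none fell, with a median log2 change of 0.05. The rises are 14.3% of the core, where 16.6% of all tested genes were higher and 13.9% lower. In the alpha ring 1 of 7 rose, PSMA4, and the log2 changes of the other 6 ran from -0.01 for PSMA1 to 0.09 for PSMA7. Of these 6, PSMA5 alone had ranges apart, and it did not pass (log2 change 0.06, limma adjusted p = 0.448). In the beta ring 1 of 7 rose, PSMB2. PSMB5 carries the chymotrypsin-like site that proteasome inhibitors such as bortezomib bind, and it had 49.3, 51.8 and 53.4 FPKM in NCI-H1650Re, against 47.7, 45.2 and 43.7 FPKM in NCI-H1650. Its ranges were apart, yet it did not pass (log2 change 0.17, SE 0.07, limma adjusted p = 0.0839).

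PSMB6, with the caspase-like site, had 116, 115 and 128 FPKM in NCI-H1650Re, against 132, 111 and 120 FPKM in NCI-H1650. These ranges overlapped, with a log2 change of -0.01 and a 95% interval from -0.21 to 0.18 (limma adjusted p = 0.910). PSMB7, with the trypsin-like site, had 155, 155 and 151 FPKM in NCI-H1650Re, against 146, 143 and 129 FPKM in NCI-H1650. It was apart but did not pass (log2 change 0.14, 95% interval -0.02 to 0.30, limma adjusted p = 0.158). The beta subunits without a site, PSMB1, PSMB3 and PSMB4, had log2 changes of 0.003, 0.07 and -0.06.

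Across the cap, 3 of 19 genes rose and 1 fell, with a median log2 change of 0.13. That is 15.8% higher and 5.26% lower, where 16.6% of all tested genes were higher and 13.9% lower. The difference between the core and cap medians was not tested. Among the 6 base ATPases every log2 change was above 0, from 0.05 for PSMC5 to 0.28 for PSMC4, and 1 passed. PSMC6 had the second largest, 0.23 (SE 0.10, limma adjusted p = 0.138). PSMC1 was at 27.2 ± 0.884 FPKM in NCI-H1650Re and 24.4 ± 0.301 FPKM in NCI-H1650, with ranges apart (limma adjusted p = 0.1004). PSMC3 was at 128 ± 13.8 and 115 ± 6.89 in the same order, with ranges that overlapped (limma adjusted p = 0.248). Neither PSMC1 nor PSMC3 passed.

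Among the 13 PSMD genes, PSMD8 and PSMD14 rose, PSMD7 fell and 10 did not pass. PSMD1 and PSMD2, the large scaffold subunits of the base, had log2 changes of 0.10 and 0.13. The ubiquitin receptor PSMD4 was at 85.9 ± 5.19 FPKM in NCI-H1650Re and 85.7 ± 4.12 FPKM in NCI-H1650 (log2 change 0.002, 95% interval -0.17 to 0.17). The lid subunits PSMD3, PSMD6, PSMD11, PSMD12 and PSMD13 had log2 changes from 0.03 for PSMD6 to 0.18 for PSMD11. PSMD11 and PSMD3 did not overlap between lines, with limma adjusted p of 0.0751 and 0.101. PSMD5 and PSMD10, chaperones of the base rather than subunits of the finished cap, had log2 changes of 0.11 and -0.05.

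Summed over the 14 core genes, FPKM came to 1537, 1540 and 1470 in NCI-H1650Re replicates 1, 2 and 3, against 1516, 1435 and 1413 in NCI-H1650. Summed over the 19 cap genes, it came to 1317, 1293 and 1197 in NCI-H1650Re, against 1236, 1168 and 1168 in NCI-H1650. The ratio of the cap sum to the core sum was 0.857, 0.839 and 0.814 in NCI-H1650Re, against 0.815, 0.814 and 0.827 in NCI-H1650. These sums overlap between the lines and are given without a test.

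Core subunits enter the finished particle in equal number, but their RNA levels did not match. PSMA7, an alpha subunit, had the highest level, 399 ± 23.1 FPKM in NCI-H1650Re and 375 ± 3.58 FPKM in NCI-H1650. PSMA5, of the same ring, had the lowest of the core, 23.0 ± 0.305 FPKM in NCI-H1650Re and 21.9 ± 0.627 FPKM in NCI-H1650. The span from lowest to highest was 17.4-fold in NCI-H1650Re and 17.1-fold in NCI-H1650.

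In NCI-H1650Re the core order below PSMA7 was PSMB4 (169 FPKM), PSMB3 (162), PSMB7 (154), PSMB1 (145), PSMB6 (119), PSMA3 (76.5), PSMB5 (51.5), PSMA2 (51.0), PSMA1 (49.3), PSMB2 (49.3), PSMA4 (39.0), PSMA6 (27.7) and PSMA5. The NCI-H1650Re ranges of PSMB4 and PSMB3 overlapped, as did those of neighbours in this order from PSMB5 to PSMB2. In the cap, PSMD8 stood highest at 158 ± 4.31 FPKM in NCI-H1650Re and 137 ± 1.92 FPKM in NCI-H1650, and PSMD5 lowest at 16.3 ± 0.577 and 15.1 ± 2.11 in the same order. Of the 42 genes, 12 have pseudogenes named after them in GENCODE release 29, among them PSMA6, PSMD7 and PSMD8, and PSMC1 has 13. A further limit is exon overlap with a gene on the opposite strand, which 16 of the 42 have, PSMD7 and PSMD14 among them. The sources used here do not say how reads were shared out among such copies and strands, and these levels are uncertain to that extent.

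**Figure D4:**
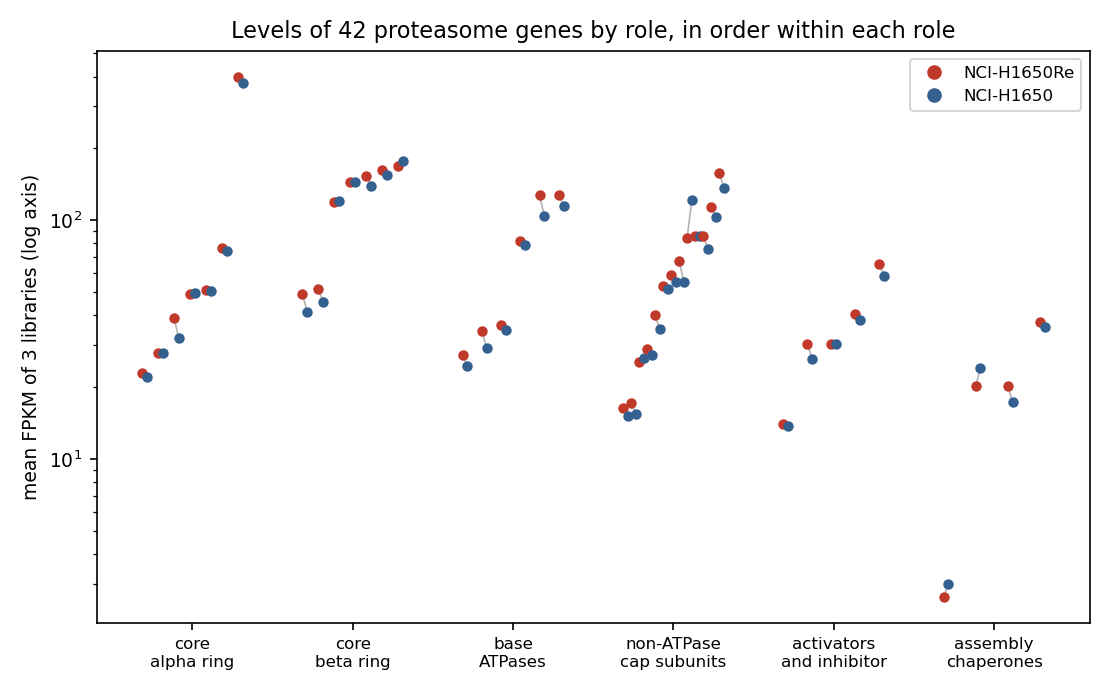
Mean FPKM of 3 libraries (y axis, log scale) for 42 proteasome genes by role, NCI-H1650Re (left point of each pair) and NCI-H1650 (right point). The core spans from 23.0 FPKM for PSMA5 to 399 FPKM for PSMA7 in NCI-H1650Re, and the lowest gene of all is the chaperone PSMG4, at 2.64 FPKM in NCI-H1650Re and 2.98 in NCI-H1650.

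None of the 4 activators or the inhibitor passed, where 30.5% of all tested genes did. PSME1 and PSME2 encode the subunits of an activator ring that interferon gamma induces, and both were uneven among the NCI-H1650 libraries. PSME1 had 30.8, 30.85 and 28.95 FPKM in NCI-H1650Re replicates 1, 2 and 3, against 23.95, 27.1 and 39.8 FPKM in NCI-H1650. PSME2 had 44.8, 42.4 and 34.5 FPKM in NCI-H1650Re, against 33.5, 34.1 and 47.2 FPKM in NCI-H1650. NCI-H1650 replicate 3 was the highest library for PSME1 and for PSME2, and their errors were wide (log2 change 0.03, SE 0.17, limma adjusted p = 0.913 for PSME1, and 0.09, SE 0.15, limma adjusted p = 0.670 for PSME2).

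Without both replicate 3 libraries PSME1 (log2 change 0.26, limma adjusted p = 0.0343) and PSME2 (0.36, limma adjusted p = 0.00608) were higher in NCI-H1650Re. The inducible catalytic subunits had the same high library. PSMB8 had 13.3, 14 and 21.4 FPKM in NCI-H1650Re, against 17.1, 21.5 and 40.7 FPKM in NCI-H1650, and did not pass (limma adjusted p = 0.165). PSMB9 had 9.57, 10.2 and 13.8 FPKM in NCI-H1650Re, against 6.68, 9.32 and 26.15 FPKM in NCI-H1650, and did not pass either (limma adjusted p = 0.873). The log2 change of PSMB9, -0.10 over all libraries, was 0.44 without NCI-H1650 replicate 3. Replicate 3 was thus highest of NCI-H1650 for PSMB8 and PSMB9, with NCI-H1650Re replicate 3 highest of its own line.

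PSMB10 had 10.04, 10.75 and 9.18 FPKM in NCI-H1650Re, against 14.3, 17.5 and 29.2 FPKM in NCI-H1650. It was the 1 inducible subunit of 3 that passed in the limma fit, and it fell (log2 change -0.90, SE 0.22, limma adjusted p = 0.0203). Its limma call ended without NCI-H1650Re replicate 2 (limma adjusted p = 0.0559) or NCI-H1650 replicate 2 (0.0512). In the authors' deposited table PSMB10 has a log2 fold change of -1.05 and an FDR of 6.87e-06 and is marked as down. PSMB8 has -0.73 and an FDR of 0.0318 there, and PSMB9 -0.35 and an FDR of 0.565, both marked as normal. With replicate 3 of each line left out, PSMB8 (log2 change -0.46, limma adjusted p = 0.0122) and PSMB10 (-0.56, limma adjusted p = 0.00440) were lower in NCI-H1650Re, and PSMB9 did not pass (0.29, limma adjusted p = 0.121). The part of replicate 3 in these values beyond these fits was not tested.

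**Figure D5:**
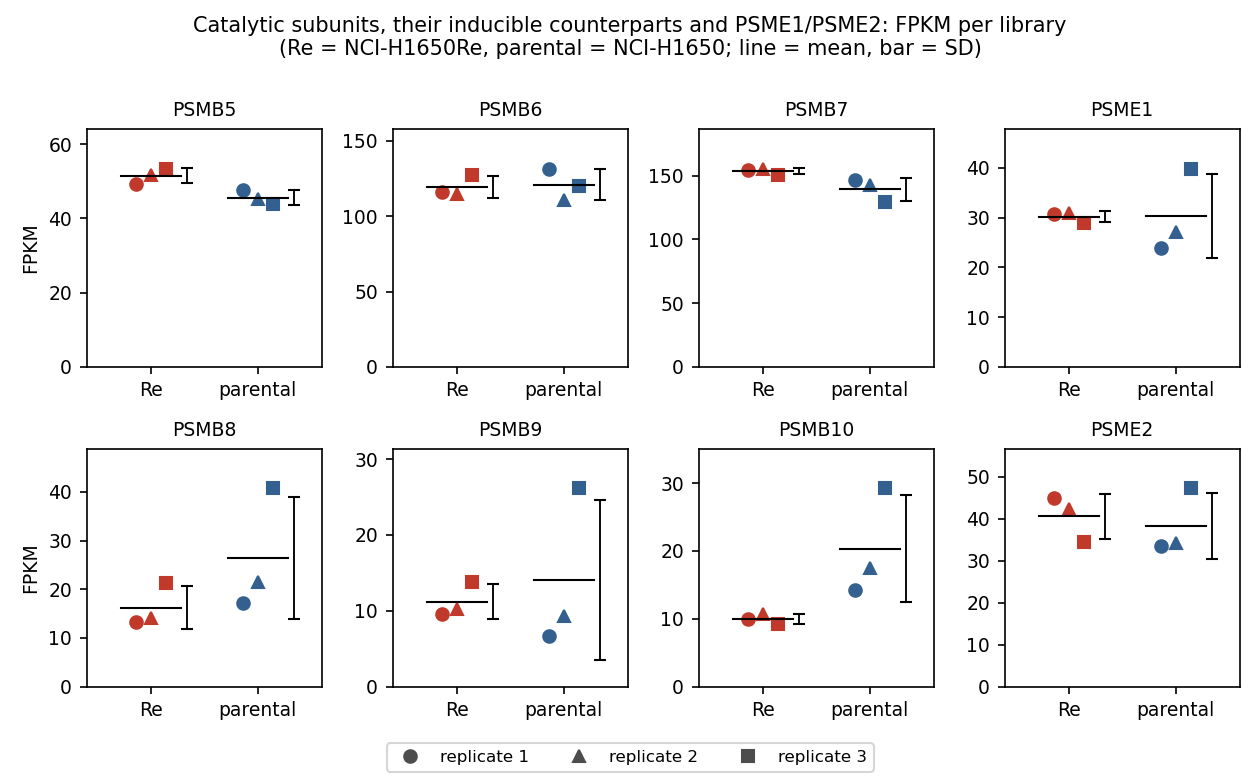
FPKM (y axis, from 0) per library of the catalytic subunits PSMB5, PSMB6 and PSMB7 with their inducible counterparts PSMB8, PSMB9 and PSMB10 below them, and of PSME1 and PSME2; NCI-H1650Re left, NCI-H1650 right, lines are means and bars the SD of 3 libraries. NCI-H1650 replicate 3 (square) is the highest library for PSME1, PSME2, PSMB8, PSMB9 and PSMB10, at 39.8, 47.2, 40.7, 26.15 and 29.2 FPKM.

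PSME3, the nuclear activator, had 70.7, 65.4 and 59.6 FPKM in NCI-H1650Re, against 58.9, 55.4 and 60.1 FPKM in NCI-H1650 (log2 change 0.16, SE 0.08, limma adjusted p = 0.162). PSME4, an activator linked to histone turnover, had 15.02, 13.9 and 13.0 FPKM in NCI-H1650Re, against 14.8, 14.3 and 12.0 FPKM in NCI-H1650 (log2 change 0.03, 95% interval -0.19 to 0.25). The inhibitor PSMF1 had 32.6, 30.25 and 27.7 FPKM in NCI-H1650Re, against 26.4, 27.1 and 25.4 FPKM in NCI-H1650, with ranges apart (log2 change 0.19, SE 0.08, limma adjusted p = 0.1003). PSME3 and PSMF1 passed without NCI-H1650Re replicate 3 (limma adjusted p = 0.0470 and 0.0311) and without both replicate 3 libraries (0.0330 and 0.0444). None of the 4 assembly chaperones passed, where 30.5% of all tested genes did. An unadjusted limma p under 0.05 was reached by 3 of these 9 genes, PSMF1, PSMG1 and PSMG2, where 43.3% of all tested genes did. None of the 9 had an FDR under 0.05 in the authors' deposited table, where 27.9% of all 12659 genes had one. PSMG1 and PSMG2, which act as a pair in building the alpha ring, had opposite signs, with log2 changes of 0.21 and -0.25 (limma adjusted p = 0.106 and 0.0995). PSMG3 and PSMG4, the other pair, had 0.06 and -0.12.

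Among 32 tested genes that work with the proteasome, such as ubiquitin receptors, shuttles and deubiquitinases, 7 were higher in NCI-H1650Re, 3 were lower and 22 did not pass, where 30.5% of all tested genes changed. DDI2, also on the list of 33, was not analysed here. The median log2 change was 0.13. ADRM1, a ubiquitin receptor of the cap, was at 172 ± 14.8 FPKM in NCI-H1650Re and 124 ± 3.96 FPKM in NCI-H1650 (log2 change 0.46, limma adjusted p = 0.00504). AKIRIN2, which carries proteasomes into the nucleus, was at 38.6 ± 1.21 and 26.8 ± 0.860 FPKM in the same order (log2 change 0.51, limma adjusted p = 0.00148).

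ZFAND2A, a stress-inducible zinc finger protein that binds proteasomes, had the largest rise, 31.2 ± 3.70 FPKM in NCI-H1650Re and 19.9 ± 0.811 FPKM in NCI-H1650 (log2 change 0.62, limma adjusted p = 0.00298). PITHD1, a protein that associates with the proteasome, rose by 0.41 on the log2 scale (limma adjusted p = 0.00904). ZFAND5, a zinc finger protein that stimulates the proteasome, fell by 0.42 on the log2 scale (limma adjusted p = 0.00812). These 5 genes passed with every single library left out. USP14, a deubiquitinase of the cap, was at 21.6 ± 2.36 FPKM in NCI-H1650Re and 27.5 ± 1.96 FPKM in NCI-H1650 (log2 change -0.34, limma adjusted p = 0.0326), and passed with 2 of 6 libraries left out in turn. The core maturation factor POMP and the deubiquitinase UCHL5, at log2 changes of 0.28 and 0.23, did not pass.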

How the data were processed

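RNA-seq libraries of NCI-H1650Re (3) and NCI-H1650 (3) were grouped by their titles. HISAT2, Bowtie2, RSEM and DESeq2 are listed, with no version, in the submitters' processing notes, which give mm10 as the build although the deposited gene IDs are human Ensembl IDs. Which human build was used is not given in these sources. The authors deposited FPKM for 12659 genes, with their log2 fold changes and FDR q-values. Fragment counts stand in the authors' deposited table of regulated genes, and were used to estimate depth from FPKM of genes with 1 transcript. By that estimate, 1 FPKM of a 1 kb transcript stands for 17 to 22.3 fragments.

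The 11764 genes that averaged 1 FPKM or more in one line or the other were tested with limma 3.58.1 in R 4.3.3 on log2(FPKM + 1) with a variance trend and Benjamini-Hochberg adjustment at 0.05. A pseudocount of 1 understates changes of low genes. The named genes are the catalytic subunits, PSMD14, PSME1 to PSME4, PSMF1 and, by role, up to 4 genes past the threshold with the largest change. Up to 6 genes per related list were named by size of change. The genes and lists were chosen with earlier results of these data known. The neighbour search, promoter motifs, depth estimate, ratio of PSMD7 to PSMD14 and alternatives for the partner list were chosen after these data were seen. Gene positions came from GENCODE release 29 (GRCh38) and promoters from RefSeq (GRCh38.p14).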

Additional observations from a re-analysis of the deposited data

How the results depend on the processing

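PSMD7 passed in all 14 alternatives, with log2 changes from -0.58 to -0.48. Quantile normalization, median-of-ratios scaling, a pseudocount of 0.1, a filter at 5 FPKM or none, and no variance trend each left 6 proteasome genes changed, the same 6 genes. Between deviations, same-numbered replicates correlated at 0.173, -0.0369 and 0.211, and differently numbered ones from -0.259 to 0.230. These values do not settle whether same-numbered replicates belong together. A replicate block gave 7 changed genes, PSMC6 being added. The block made PSMB8 lower (limma adjusted p = 0.0154), and calls it ended among the partners include those of USP14 and FBXO7. With 1 library left out in turn, the count of changed genes ran from 1785 to 4478 over all genes, from 1 to 11 for proteasome genes, from 0 to 10 for those higher, from 1 to 2 for those lower, from 0 to 2 in the core, from 1 to 7 in the cap, from 0 to 2 among activators and assembly factors, and from 5 to 13 for partners. Without both replicate 3 libraries the counts were 11 changed proteasome genes, 10 higher and 4 among activators and assembly factors. Of the 14 proteasome genes followed through every setting, 3 turned sign: PSMB6 from -0.0733 to 0.0489 with single libraries left out, PSME1 from -0.119 to 0.236 and PSME4 from -0.0572 to 0.0827. Quantile normalization gave -0.0130 for PSME1 and -0.0122 for PSME4, and leaving out both replicate 3 libraries gave -0.0110 for PSME4. Inducible subunits and partners that turned sign in at least 1 setting include PSMB9, NFE2L1, MIDN, RPS27A, UBE3A and UBQLN2. The cause was not tested. Precision is limited by 3 libraries per line.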
